A study of Mus musculus with 3 samples.

Results

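Neural cells were found as a small minority of cells sorted for a mesodermal lineage reporter in mouse embryos. A cell was counted as neural when it held at least 2 UMIs (unique molecular identifiers, each marking 1 captured transcript) of Sox2 and at least 2 UMIs summed over Sox1, Pax6, Fabp7 and Hes5. This rule chose 220 of 14777 cells, or 1.49%. The levels of these 5 genes therefore describe the choice and are not a result. Of the 220 cells, 135 came from the 9852 control cells and 85 from the 4925 mutant cells.

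All embryos carried Mesp1-Cre, a recombinase expressed in early mesoderm, and Ai9, a reporter that makes the red fluorescent protein tdTomato after recombination, on a C57BL/6 background. Control embryos had 1 floxed copy of Wls (Wls fl/+) and mutant embryos had both copies floxed (Wls fl/fl). Wls, also called Wntless, is the membrane protein that carries Wnt ligands to the cell surface for secretion. Embryos staged E8.0, E8.5 and E9.5 (days of embryonic development) and 1 sample labelled E7.5 were dissociated, tagged with lipid-anchored MULTI-seq barcodes, sorted for tdTomato and profiled with the 10x Chromium v3 kit in 3 sequencing runs. The unit of comparison was the barcode sample, all cells of 1 run with the same barcode, stage and genotype label, of which 12 were control and 10 mutant. Whether 1 barcode held 1 embryo is not stated, and the control Bar29 held cells of both sexes. The p-values therefore measure the spread between these samples. All E8.0 samples lay in run 1 and all E8.5 samples in run 2, while E9.5 samples lay in all 3 runs.

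The neural plate arises from ectoderm and closes into the neural tube, whose dividing progenitors express the Sox2, Sox1 and Sox3 transcription factors. Along the body axis, Otx2, Six3, Hesx1 and Rax mark forebrain and midbrain, and Hox and Cdx genes mark hindbrain and spinal cord. Across the tube, Wnt and BMP signals from the roof favour dorsal genes such as Msx1, Pax3 and Olig3, and Hedgehog from the floor favours ventral genes such as Nkx6-1 and Olig2. Mesp1-Cre is known for labelling cardiac and cranial mesoderm, not the neural tube.

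Neural cells were present in 20 of the 22 samples (the E7.5 sample held 2 among 28 cells), and 9 samples held 10 or more of them, 175 cells in all. Those 9 samples carry the comparisons of gene levels. At E8.0 they were the control Bar29 with 14 neural cells and the mutants Bar25 with 12 and Bar28 with 10. At E8.5 there was the control Bar3 with 16. At E9.5 they were the controls Bar22 with 39 and Bar23 with 40, and the mutants Bar19 and Bar20 with 14 each and Bar21 with 16, all from run 1. Summed neural counts in these samples ran from 255024 to 1008256 UMIs. Levels are given as CPM, counts per 1e6 UMIs of the summed cells.

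Genes outside the rule set the 220 cells apart from the other 14557 cells in the same direction as the label. Of 20 further neural genes, 205 neural cells (93.2%) expressed 5 or more, against 10.6% of the other cells. The median number was 9 in neural cells and 3 in the rest. Median depth was alike, 22331.5 UMIs per neural cell and 21726 per other cell. Of 23 cell barcodes shared between runs, 0 belonged to a neural cell.

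The genes that stood highest in neural cells, ranked by the median log2 ratio of neural to other cells over the 9 samples (5 CPM added to both), were led by Sox2, Pax6 and Pou3f2. Pou3f2, a POU transcription factor of neural progenitors, was at 101 CPM in neural cells and 0.794 CPM in the others, a median log2 ratio of 4.34. Sox3, a close relative of Sox2, was at 88.2 against 1.35 CPM (3.45). The other genes among the 20 highest included Fgfbp3 (3.61), the transcription factors Sp8 (3.60), Rfx4 (3.49), Foxb1 (3.46) and Msx3 (3.28), and Crabp2 (3.05), which binds retinoic acid in the cytoplasm. The median log2 ratio of all genes considered was 0.07.

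Markers of the sorted lineage were low. Of 16 genes of mesoderm and mesenchyme, 14 were lower in neural cells, and their summed level was 199.7 CPM against 1172 CPM in the other cells. Mesp1 itself was at 0 UMIs in the neural cells. Its level in the other cells is not given here, so no difference is read from that 0. All 10 cardiomyocyte genes were lower, with a summed level of 281.7 against 2929 CPM. The 10 blood genes summed to 2218 against 62165 CPM, and 9 of them were lower. These sums are descriptions, since the cells were chosen on their own counts.

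Some members carried counts of other cell types. In 42 neural cells (19.1%) the mesenchymal genes Twist1, Prrx2 and Pdgfra summed to 3 or more UMIs, against 73.6% of the other cells and 3.98% of cells of the blood lineage. In 36 neural cells the epithelial genes Epcam, Cdh1, Krt8 and Krt18 did so. One sample stood apart: in the E8.0 control Bar29 the cardiomyocyte sum in neural cells was 1595 CPM, while the other 8 samples lay between 62.7 and 454 CPM. The source of these counts was not tested. Results that rest on Bar29 are given with and without it.

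Cells near the limits of the rule held more Twist1 and fewer of the further neural genes than those above both limits. Of 34 cells with exactly 2 Sox2 UMIs, 82.4% expressed 5 or more of the further neural genes, and their Twist1 level was 121 CPM. Among 36 cells left out for having 1 Sox2 UMI, the share was 72.2% and Twist1 stood at 132 CPM. The 170 cells above both limits had a share of 95.9% and a Twist1 level of 28.0 CPM. A further 104 cells had 2 or more Sox2 UMIs but none of the other 4 genes, and 40.4% of these expressed 5 or more neural genes.

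Neural cells were a small share of both genotypes, with wide spread between samples. At E8.0 they were 1.46% ± 0.884 of control cells (SD, n = 3, range 0.814 to 2.46) and 1.90% ± 1.11 of mutant cells (n = 3, 0.856 to 3.06). In E9.5 samples of run 1 the shares were 2.10% and 2.33% in the controls and 1.95% ± 0.296 in the mutants (n = 3, 1.62 to 2.19). In both sets the ranges overlapped. The E8.5 samples and the E9.5 samples of runs 2 and 3 spread from 0% to 3.51%, the E7.5 control Bar18 had 7.14% (2 of 28 cells), and a count of 0 among the 168 cells of mutant Bar8 allows a share of up to 1.79%. One control sample with 6 cells, fewer than the 20 set as minimum, was left out. As background, a Sox2 UMI was found in 0.857% of 1983 blood cells, at a median depth of 29810 UMIs.

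Over all stages and runs the log2 odds of being neural were higher in mutants by 0.38, which was within the spread between samples (exact permutation test within stage and run, two-sided, p = 0.484, 7200 assignments). Single samples with few neural cells carry much of that value. It was 0.03 without Bar4 or Bar5, 0.21 without Bar10 and 0.66 without Bar8. Bar4 and Bar5 are the only E9.5 samples of run 2 in this test, so leaving out either removes that set. In runs 1, 2 and 3 alone the value was 0.11, 1.60 and -0.30. In percentage points the difference was 0.52 (exact permutation p = 0.276). Each cell was also thinned to 5000 UMIs, with the rule eased to 1 Sox2 UMI and 1 UMI of the other 4 genes. Both depth and rule thus differ from the shares above. The mean shares were then 0.692% in 10 controls and 1.62% in 10 mutants. This leaves out the E7.5 control, which has no mutant of its stage. With that control, at 8% of 25 thinned cells, the control mean was 1.36%. Within stage and run the log2 odds after thinning differed by 1.18 (exact permutation p = 0.0767). Between E8.0 and E9.5 in run 1 the log2 odds rose by no more than the spread, with a difference of 0.40 (exact permutation, two-sided, p = 0.315, 200 assignments). It was 0.75 with the gate of 3 UMIs (exact permutation p = 0.1) and 0.11 with the gate of 1 UMI (p = 0.765). After thinning with the eased rule it was 1.57 (exact permutation p = 0.075), with mean shares of 0.699% at E8.0 and 1.62% at E9.5. Median depth per neural cell was 29086 UMIs at E8.0 and 20296 UMIs at E9.5 over all runs. A difference between the stages is thus neither called nor excluded. By stage, neural cells were 51 of 3202 cells (1.59%) at E8.0, 21 of 3029 (0.693%) at E8.5 and 146 of 8518 (1.71%) at E9.5. E8.5 and its run cannot be told apart.

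**Figure D1:**
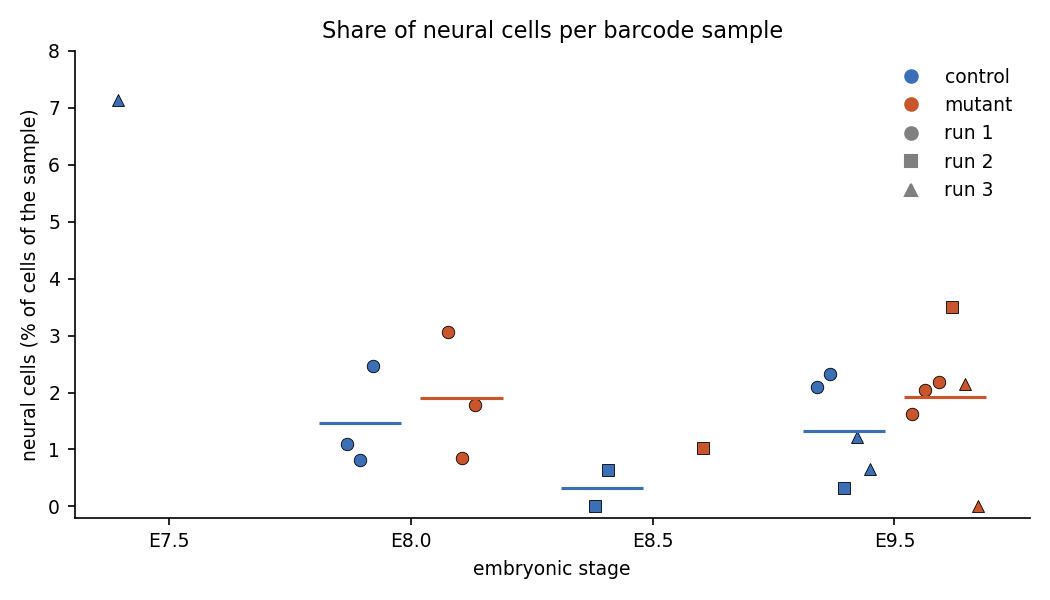
Share of neural cells in each barcode sample of 20 or more cells (percent of its cells, vertical axis) by stage, with genotype as colour, run as point shape and lines at the mean of a genotype and stage. The E9.5 run 1 samples lie between 1.62% and 2.33%, and control and mutant points overlap in E8.0 and in E9.5 run 1.

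Wls, the floxed gene, stood at 54.8 to 107.6 CPM in mutant neural cells and at 6.26 to 12.2 CPM in the other cells of the same samples. In control samples the Wls level of neural cells was 104 CPM in Bar29, 149.9 in Bar3, 90.0 in Bar22 and 100.2 in Bar23. In mutant samples it was 74.1 in Bar25, 56.5 in Bar28, 107.6 in Bar19, 98.0 in Bar20 and 54.8 in Bar21. The lowest 3 mutant values fell below every control, and the other 2 lay among the controls. In the other cells Wls ranged from 38.2 to 52.7 CPM in the 4 controls, which does not overlap with the 5 mutants.

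Mean Wls in neural cells was 111 ± 26.6 CPM in controls (SD, n = 4) and 78.2 ± 23.9 CPM in mutants (n = 5). In the other cells the means were 45.2 ± 5.92 and 8.96 ± 2.29 CPM. The log2 ratio of neural to other cells (1 CPM added to both) was 1.26 ± 0.46 in controls and 2.97 ± 0.40 in mutants, higher in 5 of 5 mutants than in any control. This difference, 1.95 within stage and run, had an exact permutation p of 0.0333, the smallest that the 30 assignments allow. Bar3 has no mutant of its stage among these samples and does not enter this difference. Leaving out any 1 other sample ended the call, because too few assignments were left for any result to be called. The difference stayed between 1.82 and 2.07. The exact p was each time the smallest possible: 0.05 without Bar25 or Bar28, 0.0556 without Bar19, Bar20 or Bar21, 0.0833 without Bar22 or Bar23 and 0.1 without Bar29. Stricter choices of cells also gave an exact p of 0.1, again the smallest possible. With samples of 5 or more neural cells the difference was 2.40 (exact permutation p = 0.0025). With a gate of 1 UMI it was 2.26 (exact permutation p = 0.005). Pooled over all neural cells, Wls was at 104 CPM in controls (95% Poisson interval 93.5 to 116) and 100.1 CPM in mutants (86.4 to 115), intervals that cover counting error only.

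In edgeR's quasi-likelihood test over all stages, the Wls difference between mutant and control neural cells was -0.28 on the log2 scale (SE 0.21, adjusted p = 0.716), and in the other cells of the same samples it was -2.40 (adjusted p = 0.00796). The difference between those effects was 1.84 (edgeR, SE 0.24, adjusted p = 8.05e-11). It was called with each of the 9 samples left out in turn. With samples of 5 or more neural cells, 0 genes were called with a higher effect in neural cells, so Wls lost its call there. With E9.5 samples alone it was 2.08 (SE 0.29, edgeR adjusted p = 2.0e-09). A p that misses the threshold does not show that Wls was equal in neural cells of both genotypes, since 3 of 5 mutants were lower.

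**Figure D2:**
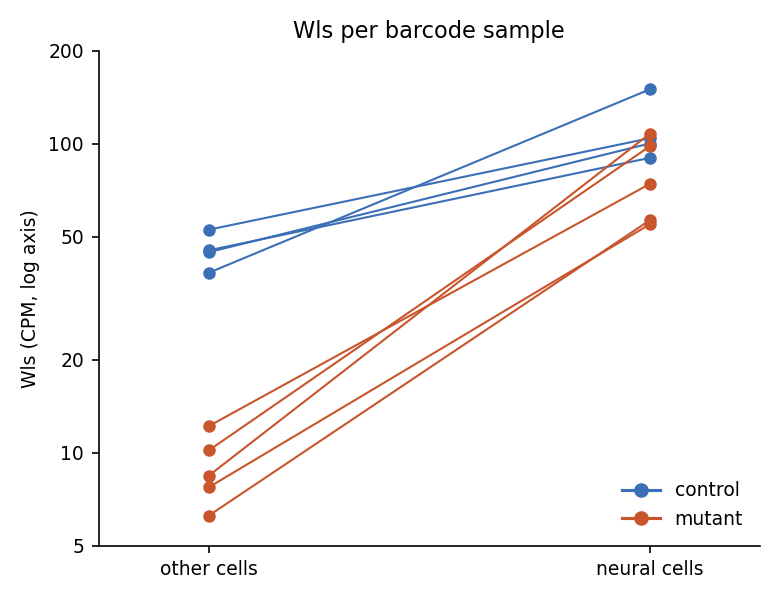
Wls level (CPM, log axis) in the other cells and the neural cells of the 9 samples with 10 or more neural cells, with a line joining both values of a sample and genotype as colour. In other cells the mutants lie between 6.26 and 12.2 CPM and the controls between 38.2 and 52.7 CPM, whereas in neural cells mutants reach 107.6 CPM.

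At E9.5 the neural cells of mutants had higher levels of genes of the low-oxygen response and glycolysis. Of 26 genes in that list, 22 passed the filter on low counts, 20 rose and 0 fell, with a median log2 change of 1.71 against 0.01 over all 5700 genes tested. By comparison, 3.47% of all genes tested were called higher and 2.16% lower (5.63% in either direction, edgeR adjusted p under 0.05). In all 22 genes every mutant sample was above every control sample, against 14.0% of all genes. Members that are near 0 in controls, such as Bhlhe40, Adm and Ndufa4l2, passed the filter through the mutants, so these counts and the median are descriptions. For a gene with 3 or fewer UMIs in 1 of the groups compared, no fitted change is given, only the UMIs or the ratio of summed CPM with its 95% exact counting interval, which leaves out the spread between samples. The comparison had 2 controls and 3 mutants, all from run 1. The list was drawn up with earlier results of these embryos known, so its count is not independent evidence of the direction.

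Pgk1, an enzyme of glycolysis, was at 1129 and 1119 CPM in the controls Bar22 and Bar23, and at 2598, 3086 and 2428 CPM in the mutants Bar19, Bar20 and Bar21. Every mutant was well above both controls, a log2 change of 1.33 (SE 0.11, edgeR adjusted p = 4.86e-09). Egln1, an oxygen-sensing prolyl hydroxylase that marks HIF for destruction, was at 111 and 103 CPM in controls and 313, 329 and 335 CPM in mutants (1.67, SE 0.15, adjusted p = 4.51e-08). Bnip3, a mitochondrial protein that promotes mitophagy, was at 18.7 and 14.9 CPM in controls and 124, 109.8 and 149.96 CPM in mutants (3.00, SE 0.28, adjusted p = 5.61e-08). The 3 mutants lay close together in each gene and the 2 genotypes were far apart.

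The promoter windows of these 3 genes are shown because the motif ACGTG, the core of the element bound by HIF factors, could be looked for there. Each window runs from 250 bases before to 50 bases after the start in RefSeq (GRCm38.p6), 5′ to 3′ on the gene's strand, in lower case with ACGTG or its reverse complement CACGT in capitals. The windows are Pgk1 at chrX:106186850-106187149 (plus strand), Egln1 at chr8:124949205-124949504 (minus strand) and Bnip3 at chr7:138909457-138909756 (minus strand).
Pgk1: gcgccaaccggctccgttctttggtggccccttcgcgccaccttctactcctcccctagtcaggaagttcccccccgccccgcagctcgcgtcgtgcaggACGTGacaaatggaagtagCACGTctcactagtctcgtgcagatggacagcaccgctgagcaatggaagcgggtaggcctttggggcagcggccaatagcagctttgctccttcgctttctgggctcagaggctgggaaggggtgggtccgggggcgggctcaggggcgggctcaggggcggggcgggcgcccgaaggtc
Egln1: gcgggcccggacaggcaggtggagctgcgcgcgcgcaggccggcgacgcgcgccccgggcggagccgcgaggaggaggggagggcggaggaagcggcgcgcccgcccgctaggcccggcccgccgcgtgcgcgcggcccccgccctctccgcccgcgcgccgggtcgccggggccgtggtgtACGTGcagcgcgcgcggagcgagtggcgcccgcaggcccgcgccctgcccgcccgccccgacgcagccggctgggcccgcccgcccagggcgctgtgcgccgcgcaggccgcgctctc
Bnip3: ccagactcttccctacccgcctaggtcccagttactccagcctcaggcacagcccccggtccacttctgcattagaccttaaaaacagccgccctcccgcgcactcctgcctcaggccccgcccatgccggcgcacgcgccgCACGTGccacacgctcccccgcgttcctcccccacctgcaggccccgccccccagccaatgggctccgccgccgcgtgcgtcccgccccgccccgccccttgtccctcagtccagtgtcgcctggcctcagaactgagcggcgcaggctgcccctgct

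Pgk1 held the motif at 150 and 131 bases before the start, Egln1 at 68 bases, and Bnip3 held 1 palindrome, CACGTG, that counts on both strands at 108 and 107 bases. Of the 20 raised genes of the list, 17 had a window and 11 of these (64.7%) held the motif on either strand in at least 1 window. The same was true of 21.8% of all 27025 genes with a window and 32.0% of the 4522 tested genes with one. A match describes the letters and is no evidence of binding.

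Genes of glucose uptake and glycolysis rose. Slc2a3, a glucose transporter, was at 195 and 151 CPM in controls and 522, 545 and 620.03 CPM in mutants (1.77, SE 0.14, edgeR adjusted p = 4.86e-09). Slc2a1, the widely expressed glucose transporter, was at 624 and 529.6 CPM in controls and 1141, 1188 and 1289 CPM in mutants (1.13, adjusted p = 7.73e-07). Hk2, the hexokinase that traps glucose, rose from 198 and 155 CPM to 427, 404 and 398 CPM (1.29, adjusted p = 9.78e-07). Ldha, which turns pyruvate into lactate, rose by less, from 2535 and 2563 CPM to 3439, 4239 and 3691 CPM (0.64). Pfkl (0.91), Tpi1 (0.70), Eno1 (0.64) and Gapdh (0.51), enzymes along the same pathway, and Pdk1 (1.63), which restrains entry of pyruvate into mitochondria, also rose.

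Other members act outside glycolysis. P4ha1, a collagen prolyl hydroxylase subunit, went from 46.1 and 41.7 CPM in controls to 254, 149 and 190.3 CPM in mutants (2.25, edgeR adjusted p = 3.08e-07). Ndufa4l2, a mitochondrial protein induced by HIF, was at 3.29 and 4.96 CPM in controls and 55.4, 90.2 and 46.1 CPM in mutants (3.90, SE 0.50, adjusted p = 1.01e-05). The secreted factors Vegfa and Adm rose too, Vegfa from 30.7 and 19.8 CPM to 101, 51.0 and 86.5 CPM (1.75) and Adm from 0 and 3.97 CPM to 45.6, 31.4 and 69.2 CPM (4.51, SE 0.69). Ndufa4l2 and Adm passed the filter through the mutants, so their fitted changes and p-values are descriptions. The fit with no low-count filter called both on the same counts, which adds no separate support. The Adm call was lost with the male share (edgeR adjusted p = 0.0968). Bhlhe40, a transcriptional repressor, had 2 UMIs in the controls and 28 in the mutants, a ratio of 29.6 (7.46 to 256.2). The members tested but not called were Ddit4 (4.36, adjusted p = 0.0804) and Mif (0.31, adjusted p = 0.0551). Ier3, Ndrg1 and Egln3 did not pass the filter on counts per sample, although Ier3, with 68 UMIs in E9.5 neural cells, had more than the tested Adm with 50, and Aldoa was listed at 0.

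The same change was seen in the other cells of these samples. Of 25 list genes tested there, 21 rose, with a median of 1.46, where 4.51% of all genes were called higher. The difference of the effect between neural and other cells at E9.5 was called for 1 of the 25 genes, Pgk1, whose rise was larger in neural cells by 0.46 (edgeR adjusted p = 0.0217). Across all genes, 0.477% differed in that test.

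At E8.0, where 1 control and 2 mutants had 10 or more neural cells and no test was run, the order of the genotypes differed. The summed level of the list was 15047 CPM in the control Bar29 and 10618 and 11941 CPM in the mutants Bar25 and Bar28, so the single control was the highest. At E9.5 the sums were 11409 and 11595 CPM in controls and 18090, 19622 and 19858 CPM in mutants. A genotype by stage term, which sets the mutant effect at E9.5 against that at E8.0, called 16 of 24 list genes, with a median of 2.18, against 1.42% of all genes tested. That term rests on Bar29 as the only E8.0 control with enough neural cells, the same sample whose sum is high, so it adds no separate support.

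Several measures moved with genotype at E9.5, and their part in the result was not tested. The share of UMIs from the mitochondrial genome in neural cells was 2.27% and 2.29% in controls and 1.39%, 1.36% and 1.43% in mutants. Ribosomal protein genes took 13.4% and 13.3% in controls and 17.0%, 16.2% and 16.5% in mutants. In the other cells of the same samples the mitochondrial share was 2.62% and 2.54% against 1.90%, 2.17% and 1.85%, and the ribosomal share 12.96% and 12.94% against 14.2%, 13.2% and 14.2%. Median depth per neural cell was 21932 and 23190 UMIs in controls and 18184, 17566 and 19252 UMIs in mutants. Mesoderm and mesenchyme markers did not separate the genotypes: their 16 genes summed to 149 and 223 CPM in controls and 225, 149 and 121 CPM in mutants, with Mesp1 at 0. Blood markers were higher in each mutant, though in neural cells Bar21 lay close to control Bar22. Their 10 genes summed to 1771 and 1694 CPM in the neural cells of controls and 2034, 2176 and 1785 CPM in those of mutants. In the other cells they summed to 39772 and 39580 CPM against 95545, 51157 and 85643 CPM.

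Sex also differed between the groups. Cells with a Y-linked transcript and no Xist, taken as male, were 1.96% and 2.19% of the cells that could be assigned in the controls Bar22 and Bar23, 99.0% of mutant Bar19, 96.9% of Bar21 and 3.19% of Bar20. Bar20, with few male cells like the controls, was above both controls in all 22 tested genes of the list. With the male share as a covariate, 16 of 22 list genes were called and the median was 1.59. At E9.5 only mutant Bar20 has a male share near that of the controls. The genotype effect in this fit therefore rests largely on Bar20 against 2 controls, with 2 residual degrees of freedom. Calls kept or lost with the male share at E9.5 carry that limit. Eif2s3y, a Y-linked gene, had 2 UMIs in the controls and 35 in the mutants and was not called with that covariate (edgeR adjusted p = 0.777).

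**Figure D3:**
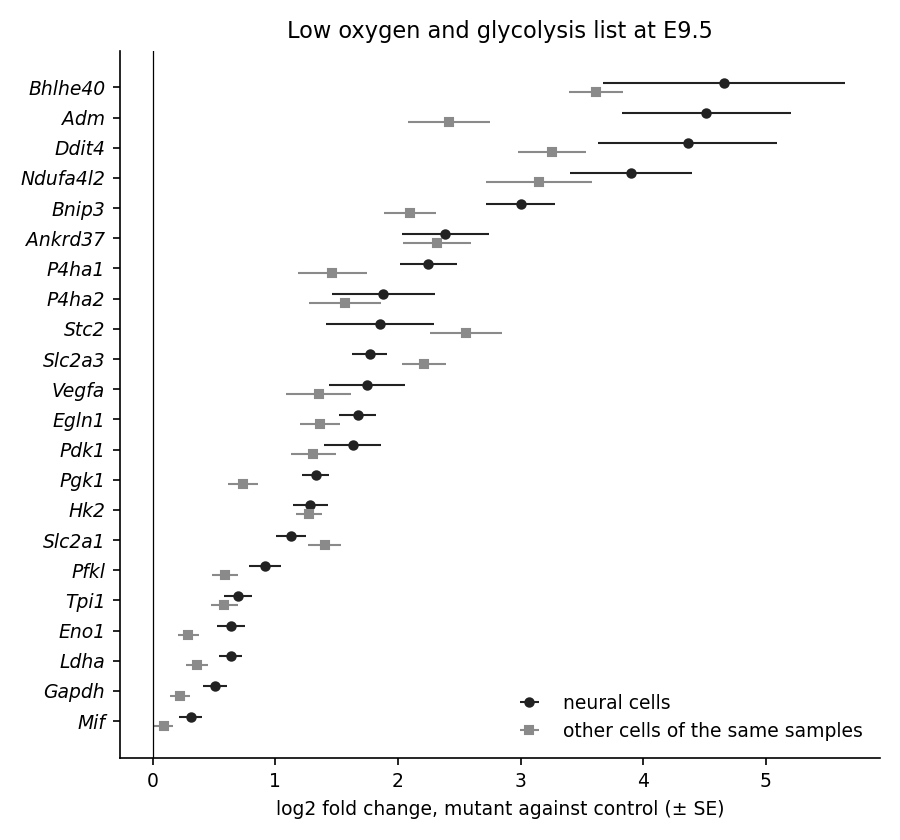
Log2 fold change of mutant against control samples at E9.5 for the 22 tested genes of the low-oxygen and glycolysis list, in neural cells (circles) and in the other cells of the same samples (squares), with bars of 1 SE. All 22 points of neural cells lie above 0, from 0.31 for Mif upwards, and the highest point, Bhlhe40, rests on 2 UMIs in the controls.

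The 321 genes called at E9.5 were 198 rises and 123 falls. At an unadjusted p under 0.05 there were 1121. DESeq2 called 153, of which 147 were shared, and the fit with the male share called 100, of which 81 were shared. The 10 largest rises also held genes outside the list: Vldlr (3.27), a lipoprotein receptor, Pfkp (2.59), a phosphofructokinase, H2-Ab1 (2.59), a class II histocompatibility gene, Stc1 (2.47), a stanniocalcin, and Ero1l (2.45), an oxidase of disulphide formation. Genes of the large ribosomal subunit were singled out after their values were seen: 23 of 47 rose in neural cells, with a median of 0.38, and 0 of 48 in the other cells, where 3.47% and 4.51% of all genes rose. Of 37 genes of the small subunit 15 rose, against 0 of 44 in the other cells, and of 19 mitochondrial genes 6 fell and 1 rose. With the male share, 6 genes of each subunit were called higher and 4 mitochondrial genes lower. The difference between the cell classes was not tested for these groups.

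Some dorsal genes were higher in mutant neural cells at E9.5. Of the 12 genes of the dorsal list 5 passed the filter and 3 rose, where 3.47% of all genes were called higher. DESeq2 called 2 of the 5, and the fit with the male share called 1, Msx1. Msx1, a homeobox gene of the roof and dorsal tube, was at 80.1 and 69.4 CPM in controls and 267, 180.4 and 236 CPM in mutants (1.69, SE 0.19, edgeR adjusted p = 1.98e-06). Zic1 was at 98.8 and 63.5 CPM in controls and 159.7, 153 and 164 CPM in mutants (1.05, adjusted p = 0.00271), and Zic2 at 34.0 and 49.6 CPM against 127, 125 and 54.8 CPM (1.31, adjusted p = 0.0141). Zic1 and Zic2 are zinc finger factors of the dorsal tube. In all 3 the genotypes did not overlap, while Zic2 in Bar21 lay near the higher control. Every mutant was above every control in 14.0% of all tested genes.

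Of 4 ventral genes tested, 1 rose as well. That gene was Nkx6-2, at 12.1 and 22.8 CPM in controls and 22.8, 51.0 and 80.7 CPM in mutants (1.63, edgeR adjusted p = 0.0369), where the lowest mutant sat at the level of the higher control. Gas1, a Hedgehog co-receptor, rose from 131 and 119 CPM to 196, 184 and 257 CPM (0.85, adjusted p = 0.00367), 1 of 6 Hedgehog genes tested. The Nkx6-2 call was lost with DESeq2 and with the male share, and the Gas1 call with the male share. Among general neural genes, Sox3 fell, from 106 and 114 CPM to 52.2, 43.1 and 75.0 CPM (-0.86, adjusted p = 0.0348). Sox21 fell too, from 57.1 and 48.6 CPM to 22.8, 23.5 and 11.5 CPM (-1.41, adjusted p = 0.0164), and Pou3f2 rose, from 131 and 119 CPM to 189, 169 and 196 CPM (0.64, adjusted p = 0.0264). The calls of these 3 genes were lost with DESeq2 and with the male share. The other 13 of 16 such genes tested were not called. The 5 genes of the rule set the choice of cells, so no test is read for them.

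A pair of axial markers was lower in mutants. Otx2, a regulator of forebrain and midbrain, was at 41.7 and 49.6 CPM in the E9.5 controls and at 0, 0 and 8.65 CPM in the mutants, or 88 UMIs against 3, a ratio of 13.9 (4.60 to 68.6). Cdx2, a regulator of the tail end, was at 60.4 and 29.8 CPM in controls and 6.52, 11.8 and 5.77 CPM in mutants (-2.43, SE 0.52, edgeR adjusted p = 0.00425). The 2 genotypes did not overlap in either gene, and 21.4% of all tested genes had every mutant below every control. Both genes passed the filter through the controls, where they are high, so their place among the calls is a description. The fit with no low-count filter called Cdx2 too, on the same counts, which adds no separate support. Cdx2 was not called by DESeq2 (adjusted p = 0.0748) or with the male share (edgeR adjusted p = 0.339). Otx2 was the only gene of its list to pass the filter at E9.5, and Cdx2 was 1 of 10 tested spinal genes. Hsd11b2 had 58 UMIs in controls and 2 in mutants. The other large falls were Akap10 (-2.20), Myo1c (-1.71), N6amt1 (-1.68), Ints6 (-1.47), Pinx1 (-1.46), Dhrs4 (-1.45) and Fam173b (-1.42). Of the 47 genes named at E9.5 and called, 31 were also called by DESeq2 and 19 with the male share.

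In neural cells at E9.5, 5.63% of all genes were called and 2.16% were called lower. The Wnt genes tested are too few to set their calls against these shares. Of 9 Wnt target and feedback genes tested, 1 fell, the cell-cycle gene Ccnd1, from 246 and 211 CPM to 149.96, 125 and 156 CPM (-0.59, edgeR adjusted p = 0.0344), and the list's median was 0.02. The Ccnd1 call was lost with DESeq2 and with the male share. Of 3 ligand and secretion genes tested, 0 were called, with all 3 changes negative and a median of -0.64. No gene was called either among 5 Notch genes, 7 retinoic acid genes and 4 hindbrain genes. Among 14 cell cycle genes Ccne1 fell (-0.93), and among 6 heat shock and stress genes Hsph1 fell (-0.70), both calls being lost with DESeq2 and with the male share. In the same list the metallothionein gene Mt1 was at 51.6 and 39.7 CPM in controls and 189, 678 and 384 CPM in mutants (3.23, SE 0.74, edgeR adjusted p = 0.152), and it was called higher by DESeq2 (3.25, adjusted p = 0.000173) and with the male share (3.96, adjusted p = 0.0176). Of the tested markers of mesoderm (3), cardiomyocytes (1), blood (5) and endothelium (2), 0 were called.

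Over all stages in 1 fit, 12 genes were called between mutant and control neural cells, 0.166% of 7214 tested, and 644 had an unadjusted p under 0.05. Msx1 was among the rises, with control values of 9.26, 291, 80.1 and 69.4 CPM in Bar29, Bar3, Bar22 and Bar23 and mutant values of 54.1, 88.3, 267, 180.4 and 236 CPM in Bar25, Bar28, Bar19, Bar20 and Bar21 (1.81, SE 0.22, edgeR adjusted p = 0.000123). The genotypes overlapped across stages, because the E8.5 control was the highest of all, while within E8.0 and within E9.5 each mutant was above each control. The other rises were Mgarp (2.37), a mitochondrial protein, Ankrd37 (1.99), which belongs to the low-oxygen list and was its 1 member called here, Gng12 (1.64), a G protein subunit, the kinase Pim1 (1.10), the initiation factor Eif4b (0.76) and Rpl30 (0.55). Sox21 (-1.34), Sox3 (-1.13) and Hras (-0.77) fell, and 1 further called gene has no standard name.

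Ttn, the giant sarcomere protein, also fell (-4.73, edgeR adjusted p = 0.000819), but this rested on Bar29 at 201 CPM, where the other 8 samples lay between 0 and 30.9 CPM. Without Bar29 the fit called 278 genes, 11 of them among the 12, and 20 of 24 low-oxygen genes. E8.0 then had no control sample, so that estimate rests on E9.5. DESeq2 called 4 genes, and the male-share fit called 1 gene that was not among the 12. The other cells of the same samples gave 2 calls.

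Few genes showed a genotype effect that differed between neural and other cells. Of 17269 genes, 27 were called (0.156%), 5 with a higher effect in neural cells and 22 with a lower one. At an unadjusted p under 0.05 there were 890. Beside Wls, the higher effects were those of Zic1 (2.17, SE 0.28, edgeR adjusted p = 5.47e-11), Zic2 (1.48, adjusted p = 0.000758) and Heatr5a (1.58, adjusted p = 0.00474). Pde11a was also called. It had 1 UMI in the neural cells of controls and 15 in those of mutants, so no difference is read from it. Zic1 in the other E9.5 cells changed by -1.25 (adjusted p = 0.25), against a rise of 1.05 in neural cells. DESeq2 called 2 genes, and among the 7214 genes of the neural fit alone Wls was the 1 gene called.

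Several of the lower effects were in genes near 0 in neural cells. Foxd3, a neural crest factor, was at 39.3 CPM in control Bar29 and 7.93 CPM in Bar23 and at 0 in the other 7 samples. Hoxc10, a posterior Hox gene, was at 37.5, 80.1 and 10.9 CPM in the controls Bar3, Bar22 and Bar23 and at 0 in Bar29 and all 5 mutants. Rgs5 and Hspb2 were also at 0 in the neural cells of every mutant sample, so no fold is given for these 4 genes and no difference is read from them. Anxa2 (-2.78, edgeR adjusted p = 3.42e-05) and Tnnc1 (-2.24, adjusted p = 0.00145), a cardiac troponin, were lower by smaller amounts, and Tnnc1 was highest in Bar29 at 60.2 CPM.

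Between E8.0 and E9.5, 4 of 11 tested forebrain and midbrain genes fell, and 5 of 8 dorsal and 2 of 4 ventral genes rose. Members near 0 at 1 stage, such as Hesx1, Rax, Msx2 and Olig2, passed the filter through the other stage. The counts and medians of these lists, here and in the dorsal and ventral paragraphs below, are therefore descriptions. The fit called 111 of 7214 genes (1.54%), 60 higher at E9.5 (0.832%) and 51 lower (0.707%). At an unadjusted p under 0.05 the number was 991. Hesx1, a forebrain repressor, was at 78.7, 39.9 and 81.2 CPM in the E8.0 samples Bar29, Bar25 and Bar28, at 1.10 CPM in Bar22 and at 0 in the other 4 E9.5 samples, or 71 UMIs against 1. Rax, an eye field gene, was at 13.9, 91.2 and 56.5 CPM at E8.0 and between 0 and 8.65 CPM at E9.5. Fezf1 (-3.70) and Pax2 (-3.38) fell as well, which makes 4 of the 11 forebrain and midbrain genes tested, with a list median of -2.78 against -0.0030 over all genes. Pax2 overlapped between stages, and the others did not.

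Of 8 genes of the pluripotency and germ cell list, 2 could be tested and both fell, where 0.707% of all genes did. Pou5f1 is near 0 at E9.5 and passed the filter through the E8.0 samples, so this count is a description. Of the 2, Dnmt3b was called with the male share and without Bar29, and Pou5f1 with neither. Pou5f1, which encodes Oct4, was at 32.4, 34.2 and 10.6 CPM at E8.0 and between 0 and 2.19 CPM at E9.5. Dnmt3b, a de novo DNA methyltransferase, was at 118, 151 and 131 CPM at E8.0 and between 17.3 and 43.6 CPM at E9.5 (-2.16, edgeR adjusted p = 9.47e-06). Pcsk1n (-3.02), the Wnt receptor Fzd5 (-3.09) and the POU factor Pou3f1 (-1.44) were lower too. Eras had 32 UMIs at E8.0 and 2 at E9.5, and the Wnt inhibitor Dkk1 27 and 2, with the calls of Eras, Dkk1 and Fzd5 lost without Bar29 and with the male share. The Pcsk1n call was lost with the male share, and the Pou3f1 call without Bar29 and with DESeq2.

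Dorsal and ventral identity genes were among the rises. Of 8 dorsal genes tested, 5 rose, where 0.832% of all genes did, with a median of 1.86. With the male share as covariate the dorsal calls were 3, the ventral 1 instead of 2 and the forebrain and midbrain 1 instead of 4. Zic1 was at 9.26, 28.5 and 3.53 CPM at E8.0 and between 63.5 and 164 CPM at E9.5 (3.19, SE 0.34, edgeR adjusted p = 6.19e-06). Olig3, a marker of dorsal progenitors, was at 6.94, 11.4 and 0 CPM at E8.0 and between 54.9 and 137 CPM at E9.5 (3.76, adjusted p = 0.000185). Olig3 too passed the filter through later samples, where it is high, so its fitted change and p are descriptions. Pax3 (1.74), Msx1 (1.97) and Msx2, with 1 UMI at E8.0 and 51 at E9.5, were the other dorsal genes called, and the Msx2 call was lost with DESeq2, with the male share and without Bar29. Msx1 was the 1 dorsal gene called whose stages overlapped.

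On the ventral side, 2 of 4 tested genes rose. Olig2, which specifies motor neuron progenitors, was at 4.63, 0 and 0 CPM at E8.0 and between 24.8 and 60.4 CPM at E9.5, or 2 UMIs against 110, a ratio of 20.7 (5.61 to 173). Nkx6-1 rose by 2.09 on the log2 scale, and that call was lost with the male share. Neurog2, a proneural factor, was at 0 in all 3 E8.0 samples and between 16.5 and 98.1 CPM at E9.5. Zic4 was likewise at 0 at E8.0 and between 8.78 and 35.3 CPM at E9.5. Both passed the filter through the E9.5 samples alone, so no fold or test is given for either.

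A few posterior genes rose. Of 15 spinal cord genes tested, Hoxb4 was called, at 20.8, 42.7 and 49.4 CPM at E8.0 and between 78.4 and 107.6 CPM at E9.5 (1.47, edgeR adjusted p = 0.00158), and the list's median was 1.43. That median rests on Bar29, whose summed level of the list was 34.7 CPM against 504 and 696 CPM in Bar25 and Bar28. Without Bar29 it was 0.51, with 8 changes positive and 7 negative, 1 gene called higher and 2 lower, and Hoxb4 kept its call (1.20, adjusted p = 0.0112). The hindbrain gene Hoxa2 rose by 2.73 (adjusted p = 0.00608). Of all 18 genes with a Hox symbol, 3 rose, where 0.832% of all genes did. Crabp2 was at 731, 527 and 427 CPM at E8.0 and between 998 and 1294 CPM at E9.5 (1.04, adjusted p = 0.000563). The endothelin receptor Ednrb (3.09), Plagl1 (2.38) and Gas1 (1.36) were higher at E9.5 as well. Pou3f3, Zfp536 and Nedd9 had 3, 1 and 2 UMIs at E8.0 and 73, 52 and 81 at E9.5. Of the 33 genes named by stage and called, 28 were also called by DESeq2, 21 without Bar29 and 15 with the male share.

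The cardiac genes Ttn (-5.01), Actc1 (-2.69) and Tnni1 (-2.62) were called lower at E9.5, 3 of 8 tested cardiomyocyte genes, where 0.707% of all genes were called lower. Bar29 held 201, 255 and 92.6 CPM of them, and the other E8.0 samples between 2.85 and 31.8 CPM. Without Bar29 the change of Tnni1 turned to 0.51, and 354 genes were called by stage, 78 of them shared with the 111. None of the 24 tested low-oxygen genes was called by stage (edgeR), with all 24 changes positive and a median of 0.92. DESeq2 called 1 of the 24, and without Bar29, which leaves only mutants at E8.0, the count was 20. The genotypes did not share this direction. The list sum was 15047 CPM in the E8.0 control Bar29 and 11409 and 11595 CPM in the E9.5 controls. In mutants it was 10618 and 11941 CPM at E8.0 and 18090, 19622 and 19858 CPM at E9.5.

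**Figure D4:**
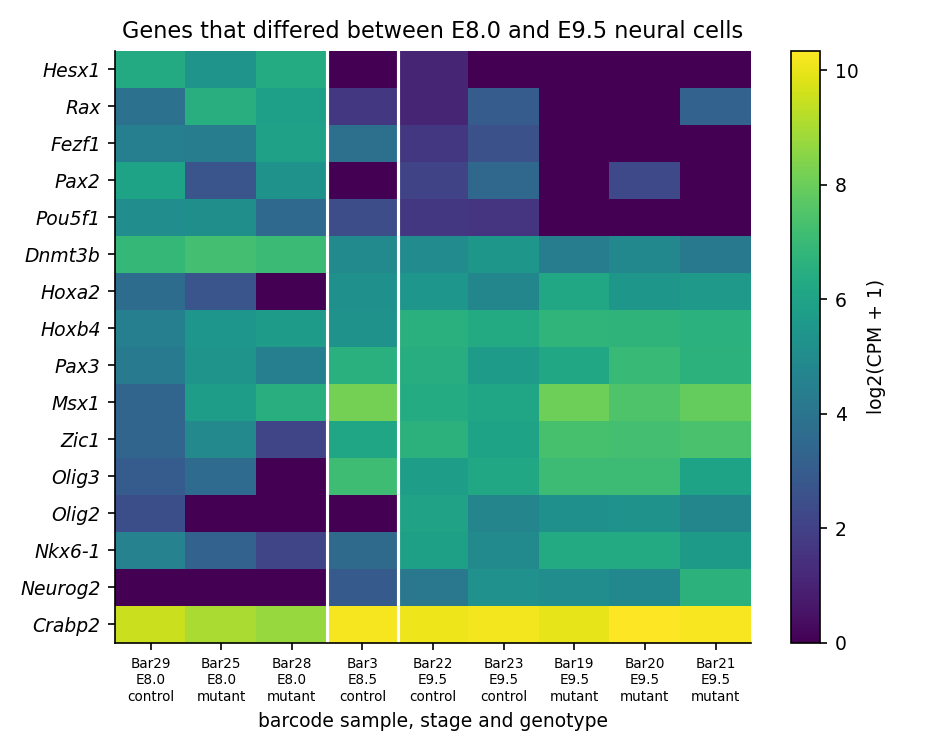
Heat map of genes called between E8.0 and E9.5 (rows) in the neural cells of the 9 samples (columns, by stage), with colour for log2 of CPM plus 1. Hesx1 lies at 39.9 to 81.2 CPM at E8.0 and at 0 to 1.10 CPM at E9.5, and Zic1 and Olig3 run the other way.

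Single cells were also sorted by the axial genes they held, which describes counts and not position. With a limit of 2 UMIs of each list, 56 of the 220 cells held forebrain and midbrain genes only, 102 spinal cord Hox and Cdx genes only, 9 both and 53 neither. Spinal genes are not particular to neural cells: 50.5% of neural cells and 40.9% of the cells outside the rule reached this limit for the spinal list, against 2.92% of blood cells. For the forebrain and midbrain list the shares were 29.5%, 6.55% and 15.4%. At E8.0, 24 of 51 cells were anterior only and 15 spinal only. At E9.5, 28 of 146 cells were anterior only and 79 spinal only.

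At E9.5 anterior cells took a lower share of the neural cells in each mutant sample than in either control. In the controls, 8 of 39 and 10 of 40 neural cells were anterior only, and in the mutants 1 of 14, 0 of 14 and 1 of 16. With 2 samples against 3 the design cannot give an exact permutation p below 0.1. Counted over all E9.5 samples of the 3 runs with at least 1 UMI of the list, the share was 38 of 94 control cells (40.4%) and 8 of 52 mutant cells (15.4%), at median depths of 21893 and 17785 UMIs. Thinned to 5000 UMIs per cell, the shares were 32.3% and 11.5%.

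UMIs of the list were not confined to neural cells. Of blood cells, 41.7% held one at a median depth of 29810 UMIs, and this came mainly from Hesx1, found in 38.0% of blood cells and 6.55% of all cells outside the rule. Without Hesx1 the share in blood cells, which should lack these genes, was 6.10%, and in all cells outside the rule it was 16.2%. It was 39.4% in E9.5 control neural cells and 15.4% in mutant ones, at median depths of 21893 and 17785 UMIs, and the cells outside the rule had 21726 UMIs. At these unequal depths the mutant share was no higher than that of the cells outside the rule. With cells thinned as above and Hesx1 kept in the list, the mutant share was higher, at 11.5% against 6.57%. Blood cells then stood at 9.14%. These differences were not tested. At E8.0 the samples did not keep 1 order: a UMI of the list apart from Hesx1 was found in 57.1% of the cells of control Bar29, 41.7% of mutant Bar25 and 90% of mutant Bar28. Over all stages, the shares for 6 regional lists differed between genotypes by -12.7 percentage points for forebrain and midbrain, 7.09 for the spinal cord, 2.05 for the hindbrain, 0.65 for the dorsal tube, -2.19 for the ventral tube and 0.42 for neuronal differentiation. None passed the exact permutation test, each with an adjusted p of 1 over the 6 lists. With 30 assignments, 1 list alone could not have passed whatever its difference, so no absence of a difference is read from this. With a sample left out the forebrain and midbrain value ran from -24.6 (without Bar29) to -7.67 (without Bar25), and the spinal value from 2.17 (without Bar20) to 12.9 (without Bar19).

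**Figure D5:**
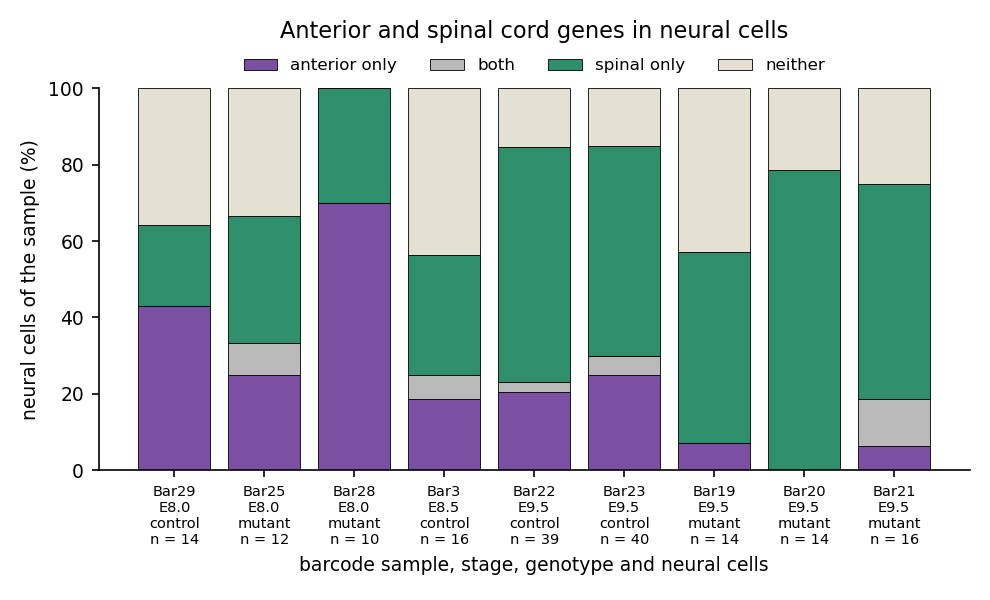
Stacked bars of the share of neural cells (percent) in each of the 9 samples that held forebrain and midbrain genes only, spinal cord genes only, both or neither, at a limit of 2 UMIs per list. The anterior-only share is 20.5% and 25% in the E9.5 controls and 0% to 7.14% in the E9.5 mutants.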

How the data were processed

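Single-cell RNA was measured in tdTomato-sorted cells of 22 barcode samples. The deposited matrix holds raw UMI counts that the authors made with kallisto and bustools (10x v3 setting), per the labels' descriptions; the submitters' processing notes also name bustools 0.46.1, Cell Ranger and the build GRCm38, with no filter or use of strand stated. Stage, genotype, run and barcode came from the authors' per-cell table, whose condition wildtype was read as Wls fl/+ and knockout as Wls fl/fl. No cell type annotation was used here.

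Neural cells were chosen by raw counts, and the members and gene lists were chosen with earlier results of these data known. Counts were summed per sample for neural and for other cells; sample totals ran from 134457 to 61307782 UMIs. No doublet caller was run.

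Gene tests used the quasi-likelihood F test of edgeR 4.0.16 (R 4.3.3; robust, TMM scaling after filterByExpr, two-sided, Benjamini-Hochberg at 0.05 over all genes tested) on samples with 10 or more neural cells, with stage and run as covariates where they could be estimated. The E9.5 fit had 3 residual degrees of freedom and an SE equal to the log2 change divided by the root of F. DESeq2 1.42.0 was an alternative, and the scripts were tested on simulated data. Shares were compared by exact permutation within stage and run (Python 3.11.15, scipy 1.17.1). The text names Wls, the genes of the rule, the 10 largest rises and falls called in each comparison (unnamed gene models by count), and 2 to 4 members of each list, called ones first. Further members of the low-oxygen list were named after their values were seen. Alternatives were a gate of 3 UMIs, other filters and scalings, samples of 5 or more neural cells, cells without epithelial or mesenchymal markers, the male share as covariate, and each sample left out.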

Additional observations from a re-analysis of the deposited data

Results flagged for a closer look

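In 3 of 58 groups checked, 1 sample lay far from the others of its genotype, and chance gives such a gap in about 1 in 20 groups. All 3 were the E8.0 control Bar29 among the 4 controls with 10 or more neural cells. Its neural cells had a summed level of 166.6 CPM over the pluripotency and germ cell list, 15047 CPM over the low-oxygen and glycolysis list and 1777 CPM over the heat shock list. Male cells were 53.1% of the assigned cells of Bar29, so its cells cannot all come from 1 embryo. They were 99.1% in the E8.0 mutant Bar25 and 98.9% in Bar28, so the male share also differed by genotype there. Bar29 is also the only E8.0 sample among these controls. The E8.0 mutants Bar25 and Bar28 had 214 and 152 CPM of the pluripotency and germ cell list, near Bar29, while E9.5 samples had 26.0 to 55.5 CPM. For the low-oxygen list they had 10618 and 11941 CPM and for the heat shock list 991 and 537 CPM, so there Bar29 was also above the other samples of its stage.

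The edgeR interaction term called 16 named genes for the genotype effect in neural against other cells of the same samples. The fitted effect was higher in neural cells for Zic1 (adjusted p = 5.47e-11), Wls (8.048e-11), Zic2 (0.0007582), Heatr5a (0.00474) and Pde11a (0.03022). The fitted effect was lower for Anxa2 (3.422e-05), Tnnc1 (0.001449), Hoxc10 (0.005334), Trh (0.005334), Lbh (0.007731), Foxd3 (0.00869), Rgs5 (0.01413), Filip1 (0.01651), Mab21l2 (0.0313), Hspb2 (0.04054) and Krt19 (0.04709). Hoxc10, Foxd3, Rgs5 and Hspb2 were at 0 in the neural cells of all mutants, Filip1 had 1 UMI there and Pde11a 1 UMI in those of controls, so no difference is read from these 6. Of all 16, Zic1, Wls and Anxa2 were called with each of the 9 samples left out in turn. With samples of 5 or more neural cells, 0 genes were called with a higher effect, so Zic1 and Wls lost their calls.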

How the results depend on the processing

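Mutant samples could not be paired with control samples, because each deposited sample is a pooled run of both genotypes and barcodes carry no shared number. Neural and other cells were compared within each barcode sample. The small number of neural cells per sample limits all gene tests; no fit was possible with 20 or more neural cells per sample, nor by stage without mesenchymal-marker cells. Alternatives on other cells, mesenchymal markers, class by stage, the filter of the neural fit, E9.5 alone and genotype by stage were chosen after seeing the data.

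Counts of called genes changed as follows. By genotype over all stages, 12 became 4 with DESeq2, 112 with no filter, 5 with samples of 5 or more neural cells, 299 with the gate of 3 UMIs, 325 without epithelial-marker cells, 289 without mesenchymal-marker cells, 1 with the male share, 100 for the genotype by stage term and 2 in other cells, and 2 to 278 with a sample left out. The 3 choices of cells and leaving out Bar29 left E8.0 with samples of 1 genotype or none. At E9.5, 321 became 153 with DESeq2, 495 with no filter, 100 with the male share and 1390 in other cells, and 163 to 312 with a sample left out. By stage, 111 became 327 with no filter, 31 with the gate of 3 UMIs, 47 without epithelial-marker cells (both leave Bar29 as the only E8.0 sample) and 52 with the male share, and 60 (without Bar25) to 354 (without Bar29). For the effect in neural against other cells, 27 became 2 with DESeq2, 2 with samples of 5 or more neural cells, 46 with the gate of 3 UMIs, 63 with the male share, 1 among genes of the neural fit, 76 at E9.5 alone and 56 with class by stage terms, and 13 (without Bar25) to 48 (without Bar29). Except where fewer samples or genes were tested, the cause was not tested.

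The Wls ratio was 1.99 with the gate of 3 UMIs and 2.47 without marked cells, each with an exact p of 0.1. It was 1.82 to 2.07 with a sample left out, which ended the call for each sample other than Bar3. Each of these p-values was the smallest its assignments allow, so the calls ended through the number of samples. The share difference in run 3 alone was -0.30. Regional differences that changed sign were the ventral list at 2 UMIs (0.24) and neuronal differentiation after thinning (-7.41); with a sample left out the hindbrain list ran from -2.47 to 12.6, dorsal from -2.98 to 3.94, ventral from -7.18 to 6.12 and neuronal differentiation from -0.83 to 3.43.

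Among single genes, Eif2s3y at E9.5 was -3.88 with the male share. Tnni1 by stage was 1.07 with the gate of 3 UMIs and ran from -2.99 to 0.51 with a sample left out. Krt19 was 1.14 and 0.36, and Rgs5, at 0 in mutant neural cells, 0.0072, under the stricter choices of cells. Wls in neural cells by genotype was 0.052 with samples of 5 or more neural cells and 0.45 without mesenchymal-marker cells; at E9.5 it was 0.0033 without epithelial-marker cells, 0.46 without mesenchymal-marker cells, 0.079 with the male share and -0.30 to 0.16 with a sample left out; by stage it was -0.44 and -0.76. None of these Wls values passed the test. For the 48 named E9.5 genes, 516 of 647 refits kept direction and call, 126 lost the call and 5 changed sign.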
